A study of Homo sapiens with 8 samples.

Results

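The comparison described here is HCT116 cells treated with largazole at 20 nM for 10 h (2 arrays) against HCT116 cells given vehicle for 10 h (2 arrays), which are 4 of the 8 arrays of the series. The arrays were chosen by their sample titles and treatment labels alone. HCT116 is an established human colorectal carcinoma cell line. The other arrays, 2 with FK228 at 20 nM and 2 with SAHA at 2 µM, both for 10 h, entered the shared estimate of the spread and 1 comparison each at the end. All cells were grown in the same serum-containing medium, and 1 line, 1 dose and 1 time limit what the comparison can stand for. The labels do not say whether the 2 arrays of a group came from separate cultures, so each p-value refers to the spread among these arrays alone, and that spread may be technical.

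Largazole is a depsipeptide first isolated from a marine cyanobacterium. It is a prodrug: its thioester is hydrolysed in cells to a thiol that binds the zinc ion in the active site of class I histone deacetylases. These enzymes remove acetyl groups from lysines of histones and other proteins, and acetylated histones mark open chromatin at promoters and enhancers. FK228, another depsipeptide, also releases a zinc-binding thiol, while SAHA is a hydroxamic acid that binds the same zinc ion.

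RNA was measured on oligonucleotide arrays of the U133 Plus 2.0 design, on which a probe set reports 1 transcript or a group of transcripts. Levels are the deposited log2 probe set levels, so a difference of 1 is a 2-fold change. The 8 arrays had medians between 4.47 and 4.51, so a change common to all genes could not be seen. Of 54613 probe sets, 28985 reached the median of all values, 4.49, on at least 2 arrays and were tested, and they covered 13381 genes with 1 symbol, each read from its brightest probe set. A gene is called when the adjusted p (limma over all 8 arrays, Benjamini-Hochberg over all tested probe sets) is under 0.05. With 2 arrays a group precision is limited, and the 95% interval of a log2 change extended 0.257 to either side at the median. Exact permutation of 2 against 2 arrays has 0.333 as its smallest two-sided p, so the model across all probe sets is the test used throughout.

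The cells carried the markers of an epithelial line. EPCAM averaged 12.42 with largazole and 12.58 with vehicle, and KRT18 averaged 12.84 and 12.83. Of 15 colorectal epithelial markers, 9 lay above the filter level on all 4 arrays, but CDH17, LGR5, CEACAM6 and GPA33 stayed below it in both groups. Among these markers CDH1, KRT19 and KLF5 rose and CDX2, an intestinal homeobox factor, fell, with means of 5.04 in largazole arrays and 5.85 in vehicle arrays. None of 9 leukocyte markers was above the filter level on all 4 arrays. Of 10 fibroblast markers 5 were, of which COL1A1 rose to a mean of 8.40 with largazole, against 7.13 with vehicle, while COL1A2, COL3A1, LUM, PDGFRA and FAP stayed below it. Of 8 endothelial markers 3 were above it, and CDH5, KDR and TIE1 were below it. In a bulk sample, fewer cells of a type and less RNA per cell cannot be told apart.

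Largazole changed the level of 6044 of the 13381 tested genes, which is 45.2%. With largazole 2936 genes were higher (21.9%) and 3108 lower (23.2%). Changes of at least 2-fold were called in 582 higher genes (4.35%) and 638 lower genes (4.77%), and changes of at least 4-fold in 80 genes each way. At 8-fold and above the balance was uneven, with 19 genes higher and 10 lower. Either direction together made 1220 genes, or 9.12%. By mean level, falls of at least 2-fold outnumbered rises among dim genes and the reverse held among bright ones: of 3345 genes with a mean level between 5.80 and 7.56, 186 rose and 287 fell, and of the 3345 brightest, 92 rose and 44 fell. Of 4072 genes with at least 2 tested probe sets and a called one, 3996 had their called probe sets in 1 direction and 76 in both. A gene with only 1 called probe set counts as 1 direction, so these counts do not measure agreement between probe sets.

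Unless said otherwise, genes named below from the comparison with vehicle changed at least 2-fold and had largazole and vehicle arrays that did not overlap. They also kept their call and their size within 1.5 times under every alternative that gave the gene a value. Their stability is therefore a condition of being named. An alternative that did not test a gene was not counted against it. HOXB8 and KRT23, for example, were not tested without probe sets whose names mark shared or cross-matching probes. Of 1220 genes changed at least 2-fold, 1005 met these conditions. Among the genes named under these conditions, the adjusted p in limma was at most 0.00584. Each change is given as the largazole mean minus the vehicle mean on the log2 scale, ± its standard error (n = 2 arrays a group). A family is given by the number of its tested genes called higher and lower, over all its members tested in the main fit. Over all tested genes the shares were 21.9% and 23.2%. The ranges that follow are the spans of these counts over the alternatives, given where a count moved by over 1.5 times. The stricter filter tested 9804 genes and the fit without probe sets of shared names 10420, against 13381. A range can therefore also reflect fewer tested members. A count moved this far in 89 of 109 families, so the counts of most families depend on the setting, on the members it tests or on single arrays.

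Below the 10 largest rises that met these conditions, the next 15 (log2 changes with their standard errors beside each) reached from PAG1, an adaptor of lymphoid and epithelial membranes that holds the kinase CSK, at a change of 3.15 ± 0.09, to CORO1A, an actin-binding coronin of blood cells, at a change of 2.65 ± 0.13. They included ACSBG1, an acyl-CoA synthetase of brain and gonads (3.08 ± 0.17), RCAN2, an inhibitor of calcineurin (2.92 ± 0.14), TENT5C, a cytoplasmic poly(A) polymerase (2.89 ± 0.099), DOCK4, an exchange factor for RAC and RAP GTPases (2.67 ± 0.085), and ALOX5, the lipoxygenase that starts leukotriene synthesis (2.66 ± 0.20). Also in this range were FAM222A (2.73 ± 0.14), COXFA4L3 (2.81 ± 0.16) and the pseudogene CEP192P1 (2.76 ± 0.16). The remaining 5, CCN2, NCAM1, DNER, THBS1 and IRF7, are described with their classes.

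Below the 10 largest falls that met them, the next 15 (log2 changes beside each) ran from TFPI, the inhibitor of the tissue factor pathway of coagulation (-2.87 ± 0.10), to TET3, an enzyme that oxidises methylated cytosine (-2.46 ± 0.17). CYP24A1, the hydroxylase that inactivates vitamin D, fell by 2.81 ± 0.14. CALHM2, a channel protein (-2.68 ± 0.12), MALL, a proteolipid of membrane rafts (-2.67 ± 0.09), TRIP6, a LIM protein of focal adhesions (-2.63 ± 0.082), KRT23, an epithelial keratin (-2.61 ± 0.16), and DHRS3, which reduces retinal to retinol (-2.52 ± 0.12), were in the same range. SMIM3 (-2.53 ± 0.098), TMEM17 of the ciliary transition zone (-2.52 ± 0.29) and LOC105377276 (-2.62 ± 0.1) completed it beside ZBTB2, ZBTB1, ABCC2 and IL27RA, which are described below.

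The promoters of 6 changed genes are printed before the values, as examples of the sequence that stood upstream of risen and fallen genes. They were taken from the transcription factor, secreted and surface families described below. For each class and direction, the gene has the largest change with an entry in the RefSeq promoter table (GRCh38.p14). Only changes that met these conditions and lie below the 10 largest rises or falls were considered. The choice was made after the changes were known. Each printed window is the 250 bases before the most upstream annotated start, 5′ to 3′ in the direction of the gene. Capitals mark the GC box, GGGCGG or its reverse complement CCGCCC, the core of the site that SP and KLF factors bind. FOS rose and has its window at chr14:75278578-75278827, plus strand:
FOS: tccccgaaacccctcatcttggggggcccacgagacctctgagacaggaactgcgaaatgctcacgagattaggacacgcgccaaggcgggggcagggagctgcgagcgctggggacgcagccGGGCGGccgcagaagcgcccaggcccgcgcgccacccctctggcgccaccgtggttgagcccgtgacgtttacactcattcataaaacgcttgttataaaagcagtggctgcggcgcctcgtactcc
CCN2 rose, and its window is chr6:131951373-131951622, minus strand:
CCN2: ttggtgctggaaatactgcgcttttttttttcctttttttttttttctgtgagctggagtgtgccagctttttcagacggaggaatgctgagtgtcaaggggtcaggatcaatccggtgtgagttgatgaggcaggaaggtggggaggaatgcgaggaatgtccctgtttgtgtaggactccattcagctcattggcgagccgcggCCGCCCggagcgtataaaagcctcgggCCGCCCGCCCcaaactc
CNTN1 rose, with the window chr12:40827934-40828183, plus strand:
CNTN1: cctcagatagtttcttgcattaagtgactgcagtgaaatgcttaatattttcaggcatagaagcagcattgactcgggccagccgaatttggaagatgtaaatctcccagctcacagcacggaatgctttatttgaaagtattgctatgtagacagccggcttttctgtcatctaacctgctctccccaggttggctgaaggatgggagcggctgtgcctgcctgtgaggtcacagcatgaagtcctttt
ZBTB2 fell, and its window is chr6:151391560-151391809, minus strand:
ZBTB2: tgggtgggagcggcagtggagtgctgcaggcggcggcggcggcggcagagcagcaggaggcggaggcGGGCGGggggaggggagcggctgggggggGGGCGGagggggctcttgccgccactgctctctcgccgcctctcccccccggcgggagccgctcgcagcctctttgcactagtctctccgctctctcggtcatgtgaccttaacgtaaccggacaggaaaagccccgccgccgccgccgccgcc
PLAU fell, with the window chr10:73910360-73910609, plus strand:
PLAU: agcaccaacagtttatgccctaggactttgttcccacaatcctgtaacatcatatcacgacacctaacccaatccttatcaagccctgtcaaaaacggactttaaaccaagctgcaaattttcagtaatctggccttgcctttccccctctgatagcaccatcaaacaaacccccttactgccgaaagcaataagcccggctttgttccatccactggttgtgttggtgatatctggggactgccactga
ABCC2 fell, with the window chr10:99782390-99782639, plus strand:
ABCC2: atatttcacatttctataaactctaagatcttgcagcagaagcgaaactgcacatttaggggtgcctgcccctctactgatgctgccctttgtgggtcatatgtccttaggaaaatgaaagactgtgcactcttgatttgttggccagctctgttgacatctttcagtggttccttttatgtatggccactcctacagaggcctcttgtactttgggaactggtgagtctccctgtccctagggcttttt
The box occurs 3 times in CCN2, 2 times in ZBTB2 and 1 time in FOS, and these letters are not in the CNTN1, PLAU and ABCC2 windows.

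Over all tested genes, 10761 of 13381 had an entry in the promoter table, and 66.0% of these windows held a GC box on either strand, against 42.2% of all 27305 promoters of the table. The box was present in 73.9% of 2381 promoters of genes that rose, in 65.0% of 2604 promoters of genes that fell and in 63.1% of 5776 promoters of genes not called. For changes of at least 2-fold the shares were 73.7% of 471 risen genes and 62.9% of 510 fallen genes. The median GC content was 68.0% in the windows of these risen genes and 64.8% in those of the fallen genes. Box share and GC content were thus both higher in the risen than in the fallen genes. Over all tested genes the median GC content was also 64.8%, with the higher box share of 66.0%. Among genes that rose at least 2-fold, the box was present in 48 of 80 promoters where the vehicle mean was under the filter level and in 299 of 391 where it was not. No test was run on these shares, and a match describes the letters of a window, not binding.

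Transcription factors are the proteins that bind DNA at set sequences and raise or lower transcription nearby. Of 839 tested genes in the transcription factor families, 202 rose (24.1%) and 237 fell (28.2%), beside 21.9% and 23.2% over all tested genes. Changes of at least 2-fold were called in 55 higher and 64 lower members. SNAI2, a repressor of epithelial genes in the neural crest and in epithelial-mesenchymal transition, was at 7.38 and 7.29 in the largazole arrays and at 3.65 and 3.10 in the vehicle arrays, a change of 3.96 ± 0.17. HEY1, a target and effector of Notch signalling, was at 8.60 and 8.61 in the largazole arrays and at 5.19 and 4.89 in the vehicle arrays. IRF7, which drives type I interferon genes, was at 8.53 and 8.69 in the largazole arrays and at 5.93 and 5.90 in the vehicle arrays. In all 3 the groups stood far apart, and of the 3 only SNAI2 had both vehicle arrays below the filter level. FOS, a partner in the AP-1 factor, was at 8.33 and 8.28 in the largazole arrays and at 5.72 and 5.76 in the vehicle arrays. MXD1, which competes with MYC for MAX, was at 7.18 and 7.10 in the largazole arrays and at 5.14 and 4.46 in the vehicle arrays, and its vehicle arrays were the less alike. ZBTB18, a zinc finger repressor of neuronal development, was at 8.91 and 8.72 in the largazole arrays and at 6.70 and 6.49 in the vehicle arrays. The changes of these 5 genes were 3.56 ± 0.12, 2.69 ± 0.12, 2.56 ± 0.088, 2.34 ± 0.22 and 2.22 ± 0.11 in the order given.

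Among genes of the transcription factor families that met the conditions for named genes, the 6 largest falls held 2 HOX genes and 3 zinc finger genes. MKX, the tendon homeobox factor Mohawk, was at 3.85 and 3.43 in the largazole arrays and at 7.76 and 7.69 in the vehicle arrays, so both largazole arrays lay below the filter level. HOXB8, a homeobox factor of body patterning, was at 5.57 and 5.84 in the largazole arrays and at 8.80 and 8.75 in the vehicle arrays. HOXB6, of the same cluster, was at 4.95 and 5.16 in the largazole arrays and at 7.10 and 7.34 in the vehicle arrays. ZBTB2, a zinc finger protein that represses the p53 pathway, was at 4.61 and 4.30 in the largazole arrays and at 7.21 and 7.24 in the vehicle arrays. ZBTB1, needed for lymphocyte development, was at 5.80 and 5.90 in the largazole arrays and at 8.32 and 8.35 in the vehicle arrays. ZSCAN31 was at 4.52 and 4.49 in the largazole arrays and at 6.80 and 6.53 in the vehicle arrays. No largazole array of these 6 genes overlapped a vehicle array, and the changes ran from -4.08 ± 0.13 for MKX to -2.16 ± 0.22 for ZSCAN31.

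**Figure D1:**
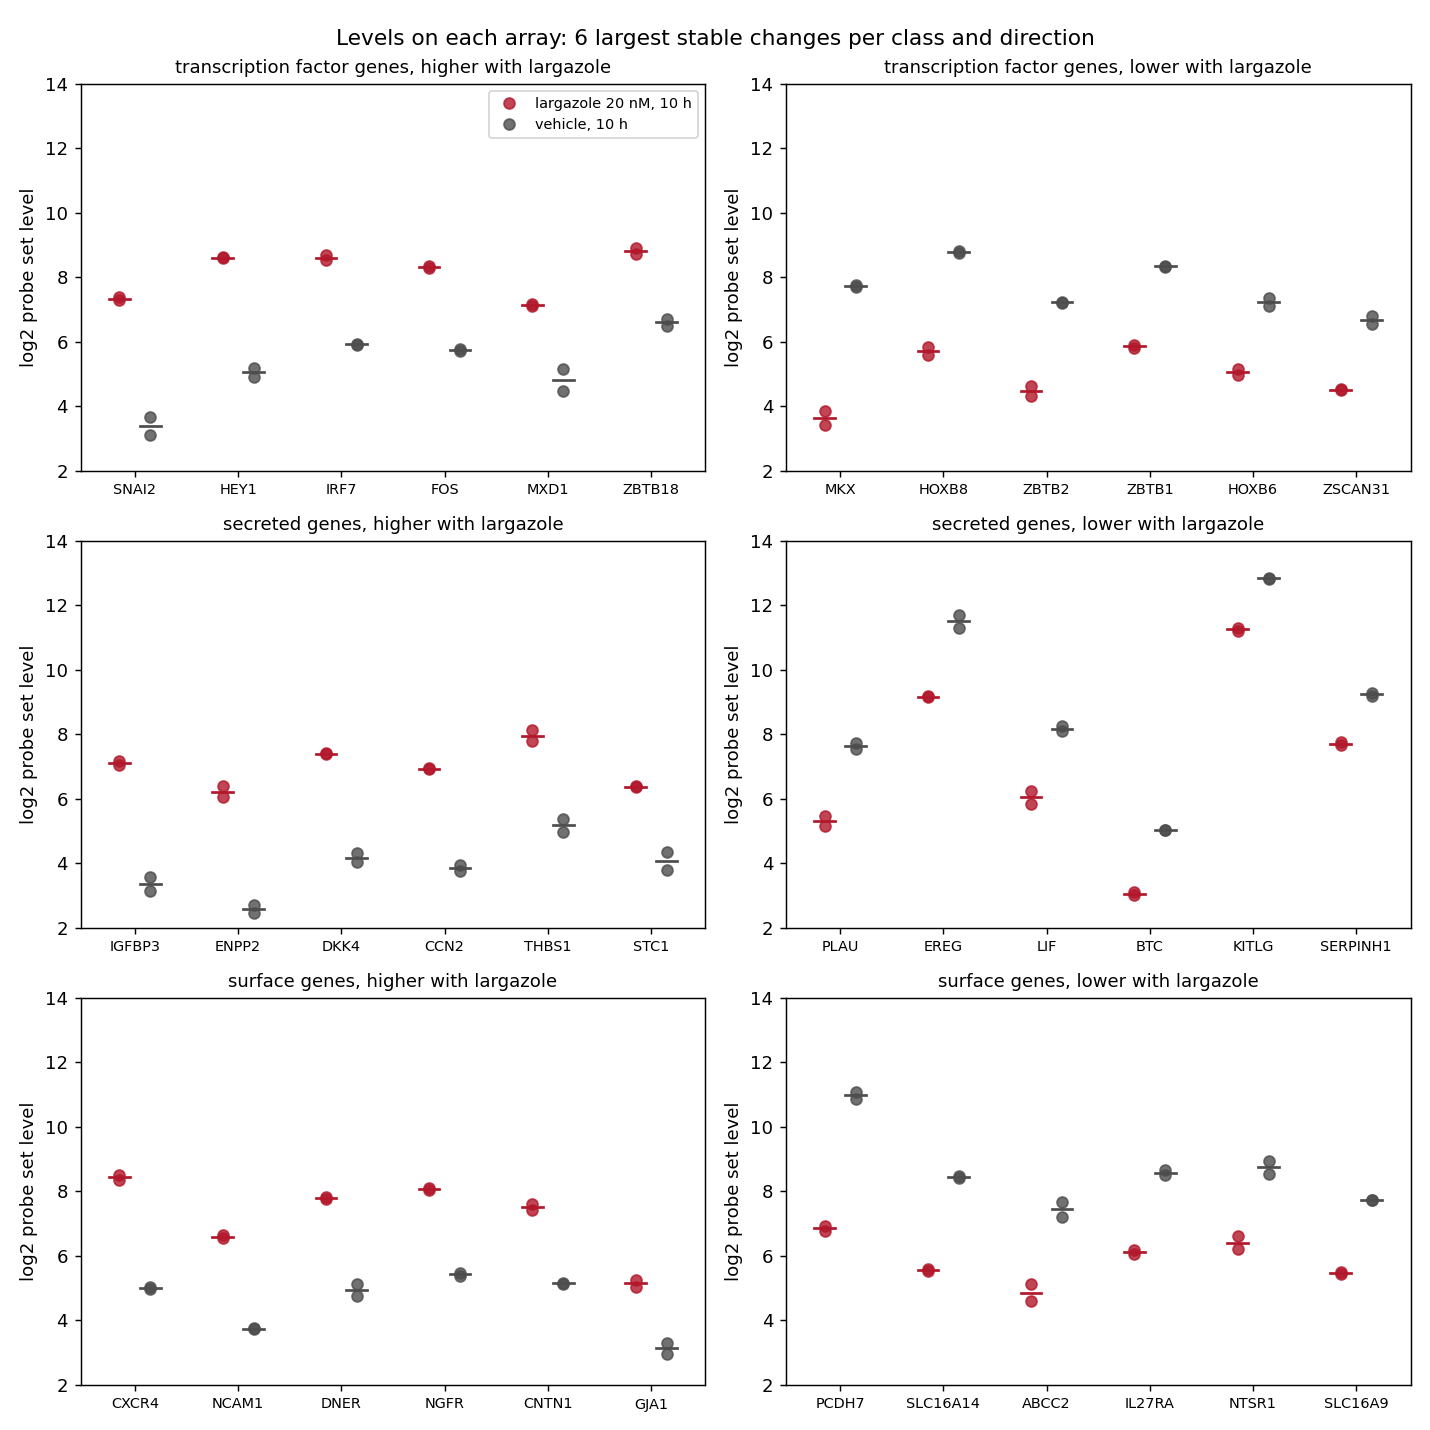
Log2 probe set levels (y axis) of genes (x axis) of the transcription factor, secreted and surface families. For each class, the 6 largest rises and 6 largest falls that met the conditions for named genes are shown. Points are single arrays, largazole left of vehicle, and short lines are means of 2 arrays. The groups do not overlap in any gene shown.

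HOX genes, which give position along the body axis and lie in 4 clusters, had more falls than rises: 2 of 19 tested members rose (range 1 to 2) and 10 fell (range 5 to 10), with a median log2 change of -0.60. Over all tested genes 21.9% rose and 23.2% fell. The falls were in the HOXB and HOXC clusters: 7 HOXB members, HOXB3 to HOXB9, and HOXC4, HOXC6 and HOXC9 fell, while HOXB13 and HOXD8 rose by 0.24 and 0.69 on the log2 scale. These members were listed after their values were seen, whether or not they met the conditions for named genes, and 5 of the falls and none of the rises reached 2-fold. Without probe sets whose names mark shared or cross-matching probes, 13 HOX genes were tested, of which 1 rose and 5 fell, and the median was 0.05.

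**Figure D2:**
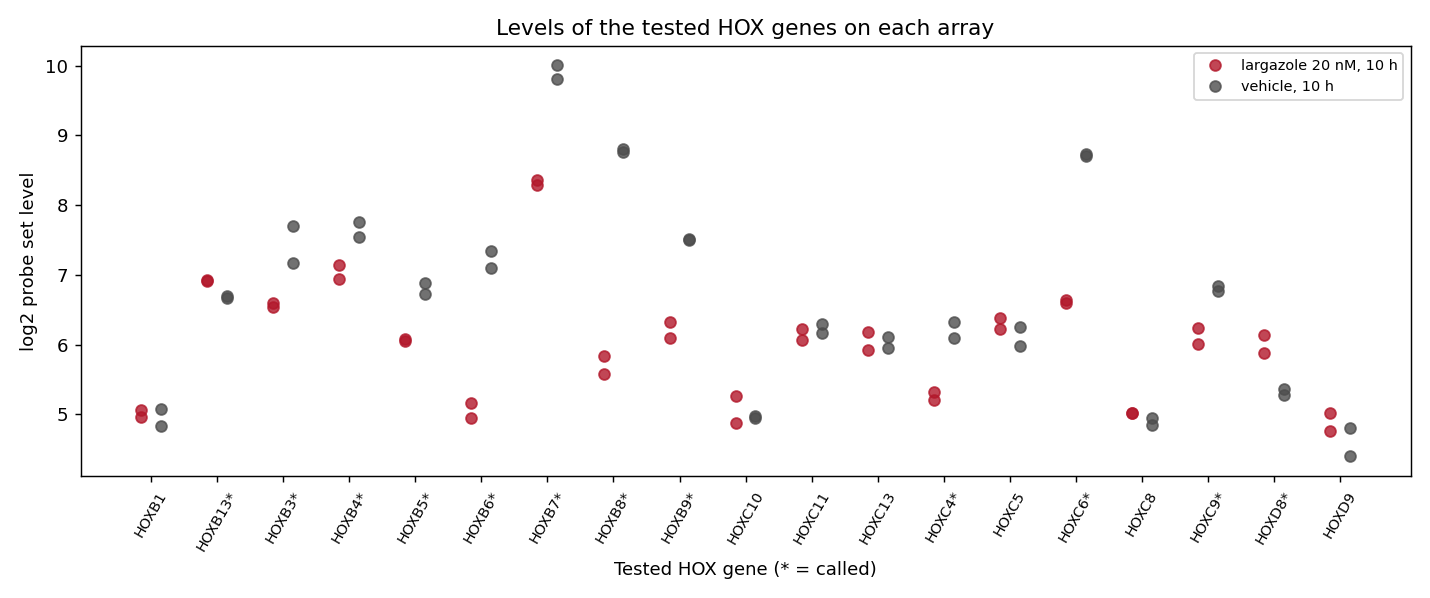
Log2 probe set level (y axis) of each tested HOX gene (x axis) on the 2 largazole arrays, left, and the 2 vehicle arrays, right. Points are single arrays and asterisks mark called genes; HOXB3 to HOXB9 are lower on the largazole arrays.

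Other transcription factor families moved in both directions, where all tested genes had 21.9% higher and 23.2% lower. In the family of E2F, TEAD, TFAP2, NFI, PAX and p53 factors, 2 of 34 tested members rose (range 2 to 3) and 16 fell (range 13 to 17), with a median log2 change of -0.20. NFIC and NFIB, nuclear factor I proteins, changed by -1.88 ± 0.10 and -1.69 ± 0.10, and TFAP2C, an AP-2 factor of trophoblast and breast, rose by 1.63 ± 0.13. Among SMAD, STAT, IRF, NF-kappaB and NFAT factors, which carry signals from receptors to DNA, 5 of 30 tested members rose (range 3 to 6) and 11 fell (range 7 to 12), with a median log2 change of -0.19. NFKB1, which makes the p50 subunit of NF-kappaB, fell by 2.07 ± 0.18, SMAD1, which carries BMP signals, fell by 1.94 ± 0.18, and STAT3, which carries signals of the interleukin-6 family, rose by 1.61 ± 0.11. ETS factors gave 4 higher and 8 lower of 21 (ranges 2 to 4 and 6 to 9): ETS1 changed by 1.48 ± 0.16 and ELF4 by -1.29 ± 0.094. The widest changes of the ETS family, in ETV7 and EHF, did not keep their call and size under every alternative, and both genes were listed after their values were seen. ETV7 was at 6.44 and 6.15 in the largazole arrays and at 2.82 and 2.98 in the vehicle arrays. EHF, an epithelial ETS factor, was at 4.87 and 5.01 in the largazole arrays and at 8.53 and 8.52 in the vehicle arrays. In the ZBTB family 9 of 42 tested members rose (range 7 to 11) and 14 fell (range 12 to 16), with a median log2 change of -0.15; BCL6, a repressor of the germinal centre, rose by 1.000 ± 0.087.

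In the basic leucine zipper family 15 of 46 tested genes rose and 14 fell: JUN, the usual partner of FOS, rose by 1.24 ± 0.098, while FOSL1, a relative of FOS, and JDP2, a repressor of AP-1, fell, with changes of -1.73 ± 0.11 and -1.96 ± 0.31. Basic helix-loop-helix factors gave 16 higher and 16 lower of 65. CLOCK, a driver of the circadian clock, changed by -1.44 ± 0.088, and ID3, which binds such factors and blocks them, by -1.40 ± 0.11. Among nuclear receptors, 7 of 28 tested genes rose and 9 fell (ranges 5 to 8 and 5 to 10): NR3C2, the mineralocorticoid receptor, rose by 1.98 ± 0.08 and NR4A3 by 1.43 ± 0.13, while the orphan receptor NR2F1 fell by 1.99 ± 0.17 and HNF4G, a factor of gut epithelium, fell by 1.94 ± 0.27. The SNAI, GATA, T-box, RUNX and GRHL group held 8 higher and 3 lower of 23, with SNAI3 at a change of 1.56 ± 0.32 and GRHL2, an activator of epithelial junction genes, at a change of -1.23 ± 0.083.

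Homeobox factors outside HOX gave 21 higher and 17 lower of 79. SATB1, a chromatin organiser of lymphocytes, and MSX1 rose by 1.37 ± 0.13 and 1.30 ± 0.08, and IRX4 fell by 1.42 ± 0.12. Forkhead factors gave 8 higher and 7 lower of 24 (ranges 3 to 8 and 4 to 7), with FOXP2, a factor of brain development, at a change of 1.11 ± 0.11. SOX factors gave 3 higher and 1 lower of 10 (ranges 1 to 5 and 1 to 1), with SOX8 at a change of 1.64 ± 0.12. The numbered C2H2 zinc finger genes, the largest family, gave 89 higher and 97 lower of 364 (ranges 59 to 95 and 66 to 101), close to the shares over all genes; ZNF280A and ZNF468 rose by 1.76 ± 0.17 and 1.7003 ± 0.22, and ZNF114 fell by 1.93 ± 0.11. Among EGR, IKZF, PRDM, GLI, ZIC and CTCF genes 6 of 34 tested genes rose and 8 fell (ranges 2 to 7 and 6 to 8): IKZF2, called Helios in T cells, rose by 1.55 ± 0.11, EGR3, an immediate early gene, rose by 1.53 ± 0.30, and ZIC2 fell by 1.13 ± 0.094. Kruppel-like and SP factors gave 7 higher and 6 lower of 20 (ranges 4 to 7 and 2 to 7).

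Secreted proteins carry signals between cells or build the matrix around them. The secreted families are symbol patterns and also hold members that stay in the cell, such as SERPINH1 of the endoplasmic reticulum. Of 380 tested genes in the secreted families, 87 rose (22.9%) and 39 fell (10.3%), so the share that rose was near that over all tested genes (21.9%) and the share that fell was lower than that over all (23.2%). The median level over the 8 arrays was 5.52 for secreted genes and 7.56 for all tested genes, and the part of level in this share was not tested. Changes of at least 2-fold were called in 29 higher and 16 lower members. IGFBP3, which binds insulin-like growth factors, was at 7.16 and 7.04 in the largazole arrays and at 3.58 and 3.13 in the vehicle arrays. ENPP2, the enzyme autotaxin that makes lysophosphatidic acid, was at 6.38 and 6.07 in the largazole arrays and at 2.72 and 2.44 in the vehicle arrays. DKK4, an antagonist of Wnt signalling, was at 7.42 and 7.38 in the largazole arrays and at 4.04 and 4.30 in the vehicle arrays. In these 3 genes, and in CCN2 and STC1 below, both vehicle arrays lay below the filter level and both largazole arrays above it. CCN2, a matrix protein also called connective tissue growth factor, was at 6.93 and 6.94 in the largazole arrays and at 3.95 and 3.77 in the vehicle arrays. THBS1, a matrix protein that restrains angiogenesis, was at 8.13 and 7.78 in the largazole arrays and at 5.37 and 4.98 in the vehicle arrays. STC1, the hormone stanniocalcin, was at 6.35 and 6.38 in the largazole arrays and at 4.34 and 3.77 in the vehicle arrays. Their changes were 3.74 ± 0.15, 3.64 ± 0.15, 3.23 ± 0.14, 3.08 ± 0.10, 2.78 ± 0.19 and 2.31 ± 0.16 in the order given; where the vehicle level is below the filter level, the size of the change is the less certain.

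Among genes of the secreted families that met the conditions, the 6 largest falls held 2 ligands of the EGF receptor family. TFPI, given above with a larger fall, matches none of the families and is not ranked here. EREG, epiregulin, was at 9.18 and 9.16 in the largazole arrays and at 11.71 and 11.29 in the vehicle arrays. BTC, betacellulin, was at 3.10 and 3.01 in the largazole arrays and at 5.03 and 5.03 in the vehicle arrays, with its largazole arrays below the filter level. PLAU, the urokinase that activates plasminogen, was at 5.14 and 5.47 in the largazole arrays and at 7.55 and 7.73 in the vehicle arrays. In each the largazole arrays lay well below the vehicle arrays. LIF, a cytokine of the interleukin-6 family, was at 6.25 and 5.85 in the largazole arrays and at 8.10 and 8.25 in the vehicle arrays. KITLG, the ligand of the receptor KIT, was at 11.31 and 11.21 in the largazole arrays and at 12.85 and 12.82 in the vehicle arrays. SERPINH1, the collagen chaperone of the endoplasmic reticulum that has the serpin fold, was at 7.66 and 7.75 in the largazole arrays and at 9.20 and 9.29 in the vehicle arrays. The changes were -2.33 ± 0.21, -1.97 ± 0.12, -2.33 ± 0.14, -2.13 ± 0.14, -1.58 ± 0.094 and -1.54 ± 0.13 in that order.

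By family, EGF-type ligands gave 1 higher and 3 lower of 6 (ranges 1 to 2 and 2 to 3), and laminins, the basement membrane proteins, gave none higher and 4 lower of 7 (ranges 0 to 0 and 1 to 5), with LAMA2 at a change of -1.17 ± 0.13. The IGF, IGFBP and CCN family gave 4 higher and none lower of 9 (ranges 3 to 5 and 0 to 1). Among semaphorins, netrins and slits, the guidance cues of axons, 11 of 27 tested members rose (range 6 to 11) and 1 fell (range 1 to 2), with a median log2 change of 0.28; SEMA6A rose by 1.61 ± 0.11 and SEMA4C fell by 1.42 ± 0.14. Serpins gave 6 higher and 1 lower of 13 (ranges 5 to 7 and 0 to 2): SERPINI1, the neuronal inhibitor neuroserpin, rose by 2.26 ± 0.098 and SERPINB9, an inhibitor of granzyme B, by 1.75 ± 0.11. Wnt proteins and their antagonists gave 6 higher and 1 lower of 16 (ranges 4 to 6 and 0 to 3), and DKK1, also an antagonist, rose by 1.43 ± 0.087. TGF-beta and BMP ligands and their antagonists gave 7 higher and 3 lower of 25 (ranges 3 to 9 and 1 to 3), with BMP6 at a change of 1.58 ± 0.12 and GDF11 at a change of 1.33 ± 0.15.

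Falls were few among collagens, metalloproteinases and other matrix proteins, where all tested genes had 21.9% higher and 23.2% lower. Rises in these 3 families were near the share over all genes, and the part of level in the falls was not tested. Collagens gave 6 higher and 1 lower of 20 (ranges 3 to 7 and 1 to 3), with COL4A4, a basement membrane chain, at a change of 1.34 ± 0.19. Matrix metalloproteinases, ADAMTS enzymes and TIMPs gave 6 higher and none lower of 23 (ranges 3 to 6 and 0 to 1), with ADAMTS15 at a change of 1.08 ± 0.21, and other matrix proteins gave 12 higher and 5 lower of 50 (ranges 5 to 13 and 3 to 5), with the proteoglycan VCAN at a change of -1.52 ± 0.092. Kallikreins and plasminogen activators gave 3 higher and 7 lower of 34 (ranges 2 to 4 and 3 to 8): PRSS35 rose by 1.35 ± 0.21, and PLAT, the tissue plasminogen activator, fell by 1.06 ± 0.11. Cytokines were mostly not called, where 45.2% of all tested genes were called. These families are dim, and of the 3346 dimmest tested genes 392 rose and 433 fell. The part of level in their counts was not tested. Interleukins and haematopoietic cytokines gave 1 higher and 2 lower of 25 (ranges 0 to 1 and 2 to 4), chemokines gave 3 higher and none lower of 11 (ranges 0 to 3 and 0 to 0), with CXCL8, which attracts neutrophils, at a change of 1.23 ± 0.11, and TNF ligands gave 2 higher and none lower of 7, with TNFSF9, the ligand of 4-1BB, at a change of 1.38 ± 0.11 and EDA, ectodysplasin, at a change of 1.01 ± 0.11.

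Growth factors moved both ways. FGFs gave 3 higher and 4 lower of 11 (ranges 1 to 3 and 1 to 4), with FGF19, which acts from the gut on bile acid synthesis, at a change of -1.21 ± 0.15. The VEGF, PDGF, angiopoietin, HGF and neurotrophin group gave 6 higher and 4 lower of 18 (ranges 1 to 6 and 3 to 6): ANGPTL4, an inhibitor of lipoprotein lipase, rose by 1.27 ± 0.13, and the platelet-derived growth factors PDGFC and PDGFA fell, with changes of -1.33 ± 0.076 and -1.24 ± 0.14. Peptide hormones, neuropeptides and granins gave 5 higher and 1 lower of 36 (ranges 3 to 7 and 1 to 2), with VGF, a neuropeptide precursor, at a change of 2.10 ± 0.15. Complement genes gave 3 higher and none lower of 11 (ranges 1 to 3 and 0 to 1), S100 genes none higher and 2 lower of 11 (ranges 0 to 0 and 1 to 4), and mucins, trefoil and REG proteins 2 higher and none lower of 20 (ranges 1 to 3 and 0 to 1).

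**Figure D3:**
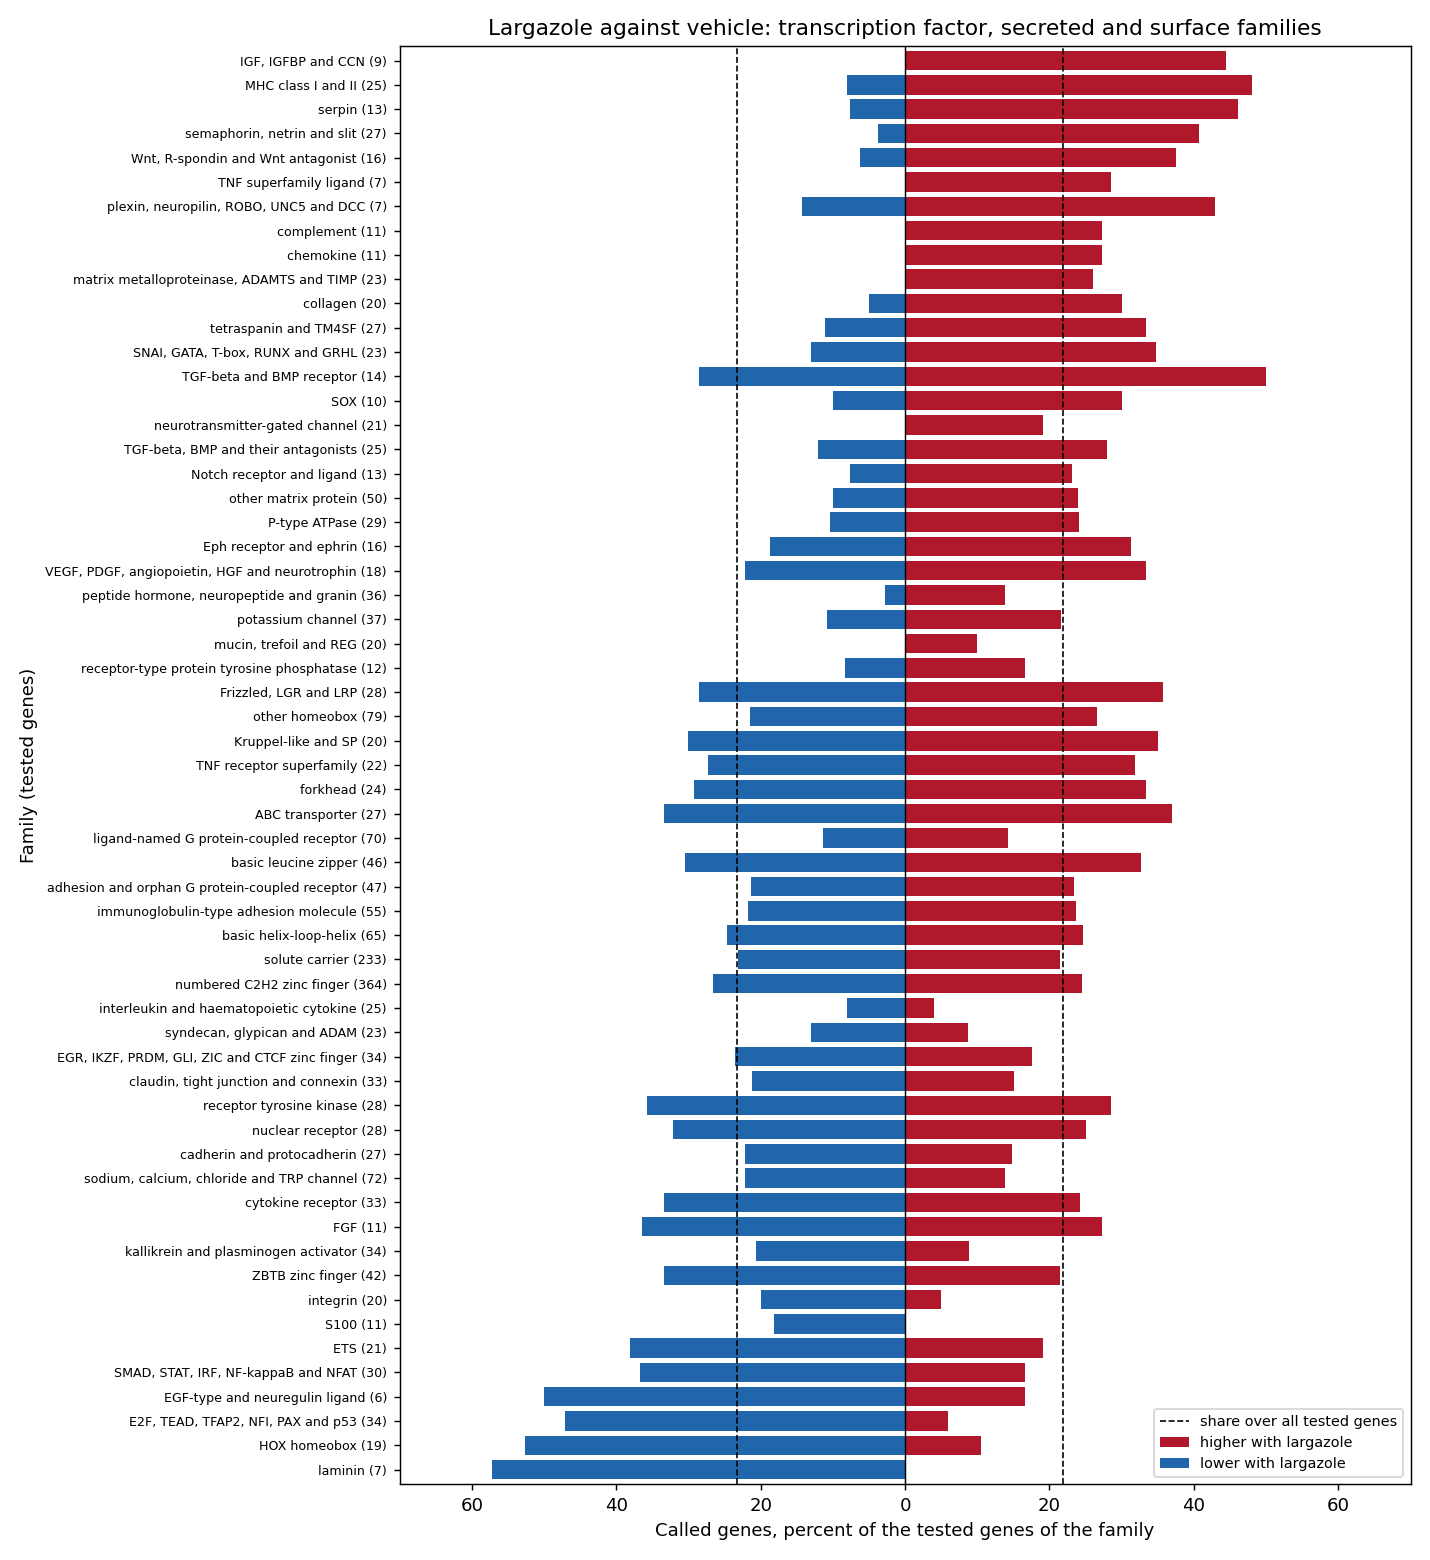
Share of the tested genes of each transcription factor, secreted and surface family called higher with largazole (red, right of 0) and lower (blue, left of 0), in percent, against vehicle. Dashed lines mark the shares over all tested genes, 21.9% higher and 23.2% lower, and the number of tested genes stands beside each name; HOX genes and laminins extend farthest on the lower side, on 19 and 7 tested genes.

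Surface proteins receive signals, join cells and move solutes. The surface families are symbol patterns and also hold members of inner membranes, such as the mitochondrial carrier SLC25A44. Of 918 tested genes in the surface families, 208 rose (22.7%) and 186 fell (20.3%), beside 21.9% and 23.2% over all tested genes. Changes of at least 2-fold were called in 55 higher and 62 lower members. CXCR4, the receptor of the chemokine CXCL12, was at 8.50 and 8.36 in the largazole arrays and at 4.98 and 5.03 in the vehicle arrays. NCAM1, the neural cell adhesion molecule, was at 6.65 and 6.54 in the largazole arrays and at 3.73 and 3.76 in the vehicle arrays, with both vehicle arrays below the filter level. DNER, a neuronal protein with EGF repeats that binds Notch, was at 7.75 and 7.84 in the largazole arrays and at 5.13 and 4.76 in the vehicle arrays. In these 3 genes the largazole arrays lay close together and far above the vehicle arrays. NGFR, the low-affinity receptor of neurotrophins, was at 8.04 and 8.11 in the largazole arrays and at 5.46 and 5.39 in the vehicle arrays. CNTN1, a contactin of axons, was at 7.41 and 7.62 in the largazole arrays and at 5.13 and 5.17 in the vehicle arrays. GJA1, the gap junction protein connexin 43, was at 5.26 and 5.04 in the largazole arrays and at 3.31 and 2.94 in the vehicle arrays, with both vehicle arrays below the filter level. The changes were 3.43 ± 0.11, 2.85 ± 0.12, 2.85 ± 0.12, 2.65 ± 0.087, 2.37 ± 0.13 and 2.02 ± 0.14 in that order.

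Among genes of the surface families that met the conditions, the 6 largest falls were led by an adhesion gene and included 3 transporters. PCDH7, a protocadherin, was at 6.77 and 6.94 in the largazole arrays and at 11.09 and 10.87 in the vehicle arrays, a change of -4.13 ± 0.14. SLC16A14 was at 5.52 and 5.60 in the largazole arrays and at 8.49 and 8.42 in the vehicle arrays, and SLC16A9, of the same monocarboxylate transporter family, was at 5.49 and 5.43 in the largazole arrays and at 7.74 and 7.75 in the vehicle arrays. The arrays of both groups lay close together in these genes. ABCC2, an export pump for conjugates in the bile canaliculus and gut, was at 4.59 and 5.12 in the largazole arrays and at 7.22 and 7.67 in the vehicle arrays. IL27RA, a subunit of the interleukin-27 receptor, was at 6.07 and 6.17 in the largazole arrays and at 8.52 and 8.65 in the vehicle arrays. NTSR1, a receptor of the gut peptide neurotensin, was at 6.22 and 6.60 in the largazole arrays and at 8.95 and 8.54 in the vehicle arrays. The last 5 genes changed by -2.90 ± 0.15, -2.28 ± 0.078, -2.59 ± 0.20, -2.46 ± 0.10 and -2.33 ± 0.18 in that order.

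The TGF-beta and BMP receptor family gave 7 higher and 4 lower of 14: BAMBI, a decoy receptor, and ACVR1C rose by 1.76 ± 0.09 and 1.35 ± 0.12, and ACVR2B and TGFBR2, type II receptors, fell, with changes of -1.28 ± 0.12 and -1.05 ± 0.094. Receptor tyrosine kinases gave 8 higher and 10 lower of 28 (ranges 4 to 9 and 7 to 10), with MET, the receptor of hepatocyte growth factor, at a change of -1.34 ± 0.11 and STYK1 at a change of -1.30 ± 0.088. Eph receptors and ephrins gave 5 higher and 3 lower of 16 (ranges 3 to 6 and 2 to 4): EPHB3, a receptor of the crypt epithelium, rose by 1.66 ± 0.089, EFNB2 rose by 1.25 ± 0.081 and EFNA2 fell by 1.71 ± 0.12. In the TNF receptor family 7 of 22 tested genes rose and 6 fell (ranges 5 to 7 and 3 to 7); the death receptors FAS and TNFRSF1A fell, with changes of -2.08 ± 0.20 and -1.22 ± 0.12. Cytokine receptors gave 8 higher and 11 lower of 33, with IL10RA at a change of 1.60 ± 0.085, IL1RAP, the shared subunit of interleukin-1 receptors, at a change of 1.48 ± 0.093 and IL15RA at a change of -1.51 ± 0.079. Notch receptors and ligands gave 3 higher and 1 lower of 13 (ranges 2 to 3 and 0 to 1).

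Frizzled, LGR and LRP genes gave 10 higher and 8 lower of 28: the Wnt receptors FZD4 and FZD6 changed by 1.02 ± 0.087 and -1.24 ± 0.085, and RNF43, which removes Wnt receptors from the membrane, by -1.36 ± 0.12. G protein-coupled receptors named by their ligand gave 10 higher and 8 lower of 70 (ranges 8 to 12 and 5 to 8), with the prostaglandin E2 receptor PTGER2 at a change of 1.18 ± 0.24 and the adenosine receptor ADORA2B at a change of -1.43 ± 0.10. Adhesion and orphan receptors gave 11 higher and 10 lower of 47 (ranges 6 to 12 and 7 to 13), with ADGRG6 at a change of -1.74 ± 0.10 and GPRC5C at a change of -1.37 ± 0.16. MHC class I and II genes, which present peptides or signal stress to natural killer and T cells, gave 12 higher and 2 lower of 25 (ranges 7 to 14 and 1 to 3). MICA and ULBP2, ligands of the natural killer receptor NKG2D, rose by 1.42 ± 0.082 and 1.38 ± 0.096. Members of the MHC family resemble each other closely, so their probe sets may share signal and single values are uncertain.

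Cell contacts moved gene by gene. Cadherins and protocadherins gave 4 higher and 6 lower of 27, with PCDH19 at a change of 1.72 ± 0.089 and the desmosomal DSC2 at a change of -2.19 ± 0.10. Claudins, tight junction proteins and connexins gave 5 higher and 7 lower of 33 (ranges 2 to 5 and 6 to 8): CLDN1 rose by 1.33 ± 0.13, and MARVELD1 and MARVELD3 fell, with changes of -1.74 ± 0.12 and -1.26 ± 0.11. Immunoglobulin-type adhesion molecules gave 13 higher and 12 lower of 55; CD58, the ligand of CD2 on T cells, and CD44, the hyaluronan receptor, fell, with changes of -1.69 ± 0.079 and -1.40 ± 0.12. Integrins gave 1 higher and 4 lower of 20 (ranges 0 to 2 and 3 to 4), with ITGB8 at a change of -1.19 ± 0.14. Tetraspanins gave 9 higher and 3 lower of 27 (ranges 7 to 10 and 0 to 4), with TSPAN13 at a change of 1.45 ± 0.09 and TSPAN7 at a change of 1.14 ± 0.092. Syndecans, glypicans and ADAM proteases gave 2 higher and 3 lower of 23 (ranges 2 to 4 and 2 to 4), with ADAM19 at a change of -1.07 ± 0.095. The plexin, neuropilin, ROBO, UNC5 and DCC receptors gave 3 higher and 1 lower of 7 (ranges 1 to 3 and 0 to 1), and receptor-type tyrosine phosphatases gave 2 higher and 1 lower of 12 (ranges 0 to 2 and 0 to 2).

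Channels and transporters held both rises and falls. Potassium channels gave 8 higher and 4 lower of 37 (ranges 4 to 8 and 2 to 4): KCNC1 and KCNS3 rose by 1.98 ± 0.097 and 1.48 ± 0.088, and KCNN4, a calcium-activated channel of epithelia, and KCNK6 fell, with changes of -2.13 ± 0.23 and -1.18 ± 0.18. Sodium, calcium, chloride and TRP channels gave 10 higher and 16 lower of 72, with SCN3B at a change of 1.17 ± 0.18, the calcium-activated chloride channel ANO1 at a change of -1.15 ± 0.19 and ORAI3 at a change of -1.09 ± 0.14. Neurotransmitter-gated channels gave 4 higher and none lower of 21 (ranges 1 to 5 and 0 to 1), with the GABA receptor subunit GABRQ at a change of 1.06 ± 0.097. Solute carriers gave 50 higher and 54 lower of 233 (ranges 30 to 55 and 37 to 59), with the bicarbonate transporter SLC4A8 at a change of 1.40 ± 0.14 and the mitochondrial carrier SLC25A44 at a change of 1.36 ± 0.082. ABC transporters gave 10 higher and 9 lower of 27 (ranges 6 to 10 and 6 to 10): ABCB1, the drug efflux pump P-glycoprotein, rose by 1.98 ± 0.17. P-type ATPases gave 7 higher and 3 lower of 29 (ranges 5 to 9 and 1 to 4), with the lipid flippase ATP8A1 at a change of 1.45 ± 0.13.

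The families inside the cell are also symbol patterns and may hold members that the family name does not describe, such as TNS3, GPX8 and TDRD3. Among them, the chromatin families differed in their counts. Core and linker histones gave 15 higher and 1 lower of 32 (ranges 6 to 16 and 1 to 1), with H2BC5 at a change of 1.97 ± 0.12 and H2AC6 at a change of 1.79 ± 0.13. The only member that fell was the variant MACROH2A2, at a change of -1.77 ± 0.13. Histone genes are near-identical copies, so their probe sets may share signal. Acetyltransferases and bromodomain proteins, which write and read the acetyl mark, had more falls than rises, where all tested genes had 21.9% higher and 23.2% lower: 4 of 47 tested members rose (range 2 to 6) and 21 fell (range 16 to 24), with a median log2 change of -0.23. NCOA2, a nuclear receptor coactivator, fell by 2.14 ± 0.11 and BRD1, a subunit of a histone acetyltransferase complex, fell by 1.16 ± 0.098. Among histone methyltransferases and demethylases 10 of 65 tested members rose (range 6 to 11) and 28 fell (range 20 to 30), with a median log2 change of -0.22, beside the same shares over all genes. SETD1B, which methylates histone H3, fell by 2.07 ± 0.096, PRMT6, an arginine methyltransferase, fell by 1.11 ± 0.17, and KDM1B, a demethylase, rose by 1.13 ± 0.14. Histone deacetylases and sirtuins gave 6 higher and 4 lower of 18 (ranges 3 to 7 and 2 to 4), with the mitochondrial SIRT4 at a change of 1.94 ± 0.14. HMG proteins gave 5 higher and 8 lower of 19 (ranges 1 to 5 and 4 to 10): TOX2 rose by 1.10 ± 0.09, and UBTF, a factor of ribosomal RNA transcription, and HMGN4 fell, with changes of -1.26 ± 0.24 and -1.19 ± 0.081.

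Cytosolic ribosomal protein genes gave 1 higher and 1 lower of 57 (ranges 0 to 1 and 1 to 3), at median levels of 13.70 with largazole and 13.71 with vehicle, close to the top of the array's range, and the gene that rose was RPL3L, the form of muscle, at a change of 1.43 ± 0.16. Among mitochondrial ribosomal protein genes 3 of 75 tested members rose (range 2 to 5) and 35 fell (range 17 to 43), with a median log2 change of -0.23; MRPL54 was, at a change of -1.05 ± 0.11. All tested genes had 21.9% higher and 23.2% lower. Aminoacyl-tRNA synthetases gave 3 higher and 11 lower of 32, with HARS2, the mitochondrial histidine enzyme, at a change of -1.08 ± 0.084. Translation initiation factors gave 10 higher and 9 lower of 48 (ranges 7 to 13 and 8 to 14): EIF4EBP2, a repressor of cap-dependent translation, and EIF5A2 rose by 1.09 ± 0.086 and 1.01 ± 0.10, and EIF2AK2, the kinase PKR, fell by 1.36 ± 0.09. Respiratory chain genes gave 9 higher and 7 lower of 78 (ranges 2 to 15 and 1 to 13). Proteasome genes gave 1 higher and 12 lower of 41 (ranges 1 to 2 and 7 to 16); the 1 that rose was PSMB9, a subunit of the immunoproteasome, at a change of 1.12 ± 0.20. Heat shock and J-domain proteins gave 15 higher and 22 lower of 73 (ranges 10 to 17 and 11 to 28): HSPA2, a testis form of HSP70, and DNAJC1 rose by 1.698 ± 0.096 and 1.48 ± 0.11, and DNAJC22 and BAG2 fell, with changes of -1.53 ± 0.10 and -1.45 ± 0.094.

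Lysosomal and lipid genes rose more often than they fell. Among cathepsins and lysosomal enzymes 36 of 69 tested members rose (range 23 to 37) and 8 fell (range 4 to 9), with a median log2 change of 0.28, beside 21.9% and 23.2% over all tested genes. NEU1, the lysosomal sialidase, rose by 2.48 ± 0.093, LAMP3, a lysosomal membrane protein of dendritic cells, by 2.10 ± 0.11, and MCOLN3, a lysosomal channel, fell by 1.04 ± 0.15. Acyl-CoA synthetases, thioesterases and fatty acid enzymes gave 19 higher and 5 lower of 49, with ELOVL3, a fatty acid elongase, at a change of 1.76 ± 0.14 and ACSL5 at a change of -1.15 ± 0.18. Cytochromes P450 gave 10 higher and 2 lower of 27 (ranges 6 to 10 and 1 to 4): CYP4F2 and CYP2R1, a vitamin D hydroxylase, rose by 1.14 ± 0.092 and 1.10 ± 0.078, and CYP1B1 fell by 1.30 ± 0.11. Short-chain dehydrogenases gave 7 higher and 7 lower of 29 (ranges 5 to 9 and 4 to 10), with HPGD, which inactivates prostaglandins, at a change of 1.23 ± 0.16. Aldo-keto reductases and aldehyde and alcohol dehydrogenases gave 7 higher and 4 lower of 23 (ranges 4 to 8 and 3 to 5). AKR1C3, a steroid and prostaglandin reductase with close copies, was at a change of 2.50 ± 0.096, ALDH8A1 at a change of 1.58 ± 0.17 and ALDH5A1 at a change of -1.003 ± 0.13. Glutathione, sulfo- and glucuronosyltransferases gave 5 higher and 8 lower of 27 (ranges 3 to 6 and 6 to 8), with GPX8 at a change of -1.60 ± 0.09 and MGST2 at a change of -1.30 ± 0.08. Glycosyltransferases gave 24 higher and 28 lower of 92: ST6GALNAC3 and XYLT1 rose by 2.51 ± 0.20 and 1.72 ± 0.13, and ST6GALNAC2 and CHST3 fell, with changes of -1.85 ± 0.16 and -1.38 ± 0.11. Metallothioneins, which are close copies of each other, gave 5 higher and none lower of 8 (ranges 0 to 6 and 0 to 0). Without probe sets whose names mark shared or cross-matching probes, 2 were tested and none was called, and the median changed sign, at -0.14 in place of 0.31.

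**Figure D4:**
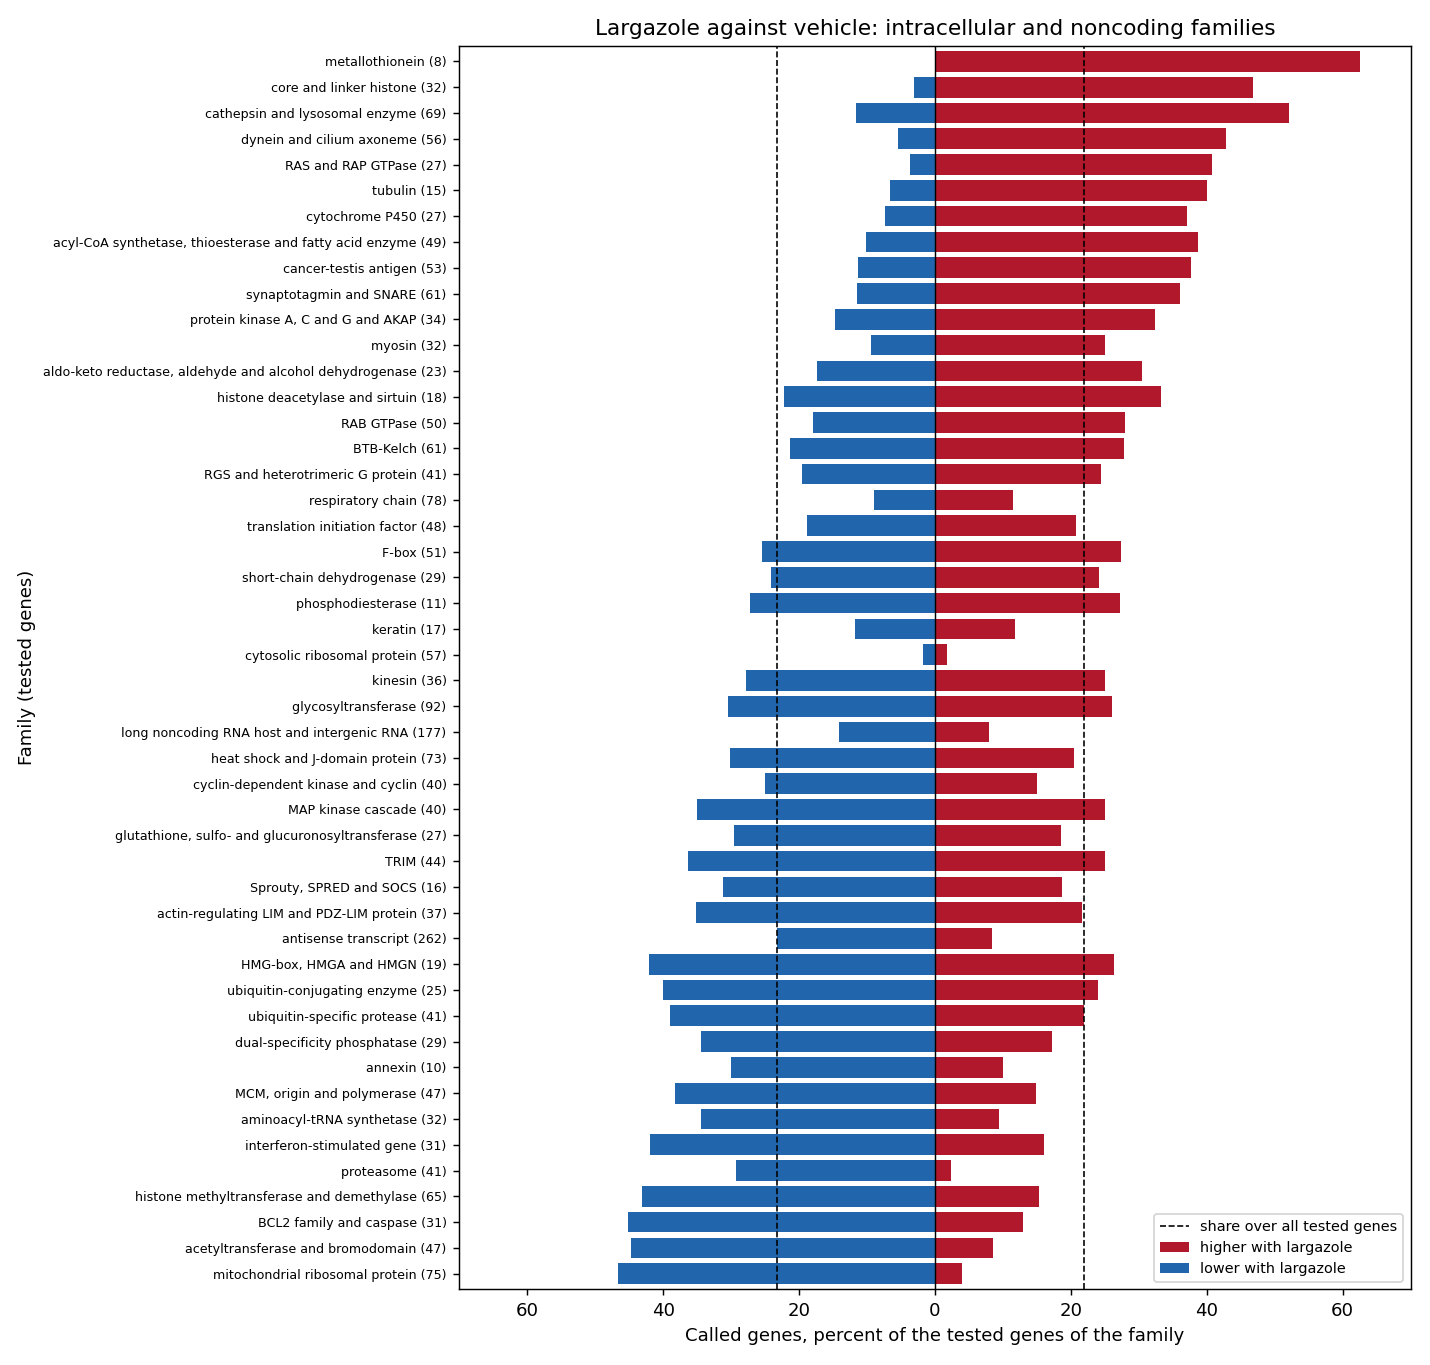
Share of the tested genes of each intracellular or noncoding family called higher with largazole (red, right of 0) and lower (blue, left of 0), in percent, against vehicle. Dashed lines mark 21.9% and 23.2%, the shares over all tested genes; lysosomal enzymes, tubulins and the dynein and cilium group lie on the higher side, mitochondrial ribosomal proteins and acetyltransferases on the lower side.

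Tubulins, cilium genes and the RAS and RAP GTPases rose more often than they fell, where all tested genes had 21.9% higher and 23.2% lower. Tubulins gave 6 higher and 1 lower of 15 (ranges 3 to 7 and 1 to 2), with TUBA1A, the main form of young neurons, at a change of 1.46 ± 0.10 and TUBB4A, also neuronal, at a change of 1.44 ± 0.089. Dyneins and other genes of the cilium gave 24 higher and 3 lower of 56 (ranges 18 to 27 and 1 to 4): DNAI3 and DNAH12 rose by 1.74 ± 0.29 and 1.16 ± 0.23, and BBS10 fell by 1.06 ± 0.21. RAS and RAP GTPases gave 11 higher and 1 lower of 27 (ranges 6 to 12 and 1 to 1), with DIRAS3, an imprinted growth-restraining GTPase, at a change of 1.67 ± 0.095. RAB GTPases gave 14 higher and 9 lower of 50 (ranges 7 to 18 and 6 to 9). Synaptotagmins and SNAREs, which fuse vesicles, gave 22 higher and 7 lower of 61 (ranges 14 to 23 and 5 to 7): SYT11 rose by 3.89 ± 0.13, VAMP1 rose by 1.18 ± 0.12 and SYT17 fell by 1.43 ± 0.11. Kinesins gave 9 higher and 10 lower of 36 (ranges 8 to 10 and 6 to 13), with KIF21B at a change of 1.86 ± 0.11 and KIF21A at a change of -1.05 ± 0.14. Myosins gave 8 higher and 3 lower of 32 (ranges 5 to 10 and 1 to 4), with MYO5C at a change of -1.15 ± 0.084. LIM and PDZ-LIM proteins gave 8 higher and 13 lower of 37 (ranges 4 to 10 and 8 to 17): CSRP2 and PDLIM3 rose by 1.43 ± 0.08 and 1.18 ± 0.10, and TGFB1I1 and TNS3 fell, with changes of -1.84 ± 0.19 and -1.58 ± 0.12. Keratins gave 2 higher and 2 lower of 17 (ranges 0 to 3 and 1 to 3), with KRT222 at a change of -1.39 ± 0.13, and annexins 1 higher and 3 lower of 10 (ranges 0 to 1 and 3 to 5).

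Signalling kinases and their brakes moved both ways, where all tested genes had 21.9% higher and 23.2% lower. The MAP kinase cascade gave 10 higher and 14 lower of 40 (ranges 6 to 11 and 11 to 15), with MAPK13, a p38 form, at a change of -1.38 ± 0.10 and MAP3K11 at a change of -1.13 ± 0.10. Dual-specificity phosphatases, which switch MAP kinases off, gave 5 higher and 10 lower of 29 (ranges 4 to 5 and 4 to 13), with DUSP10 at a change of 1.88 ± 0.13. Sprouty, SPRED and SOCS inhibitors gave 3 higher and 5 lower of 16 (ranges 1 to 3 and 4 to 7), with SOCS6 at a change of -2.27 ± 0.21. Phosphodiesterases gave 3 higher and 3 lower of 11, with PDE2A at a change of 2.19 ± 0.14 and PDE4B, which breaks down cyclic AMP, at a change of -4.83 ± 0.12. Protein kinases A, C and G and their anchors gave 11 higher and 5 lower of 34, with PRKAR2B at a change of 1.05 ± 0.089 and PRKACB at a change of -1.28 ± 0.083. RGS and heterotrimeric G proteins gave 10 higher and 8 lower of 41 (ranges 6 to 12 and 5 to 9). Cyclins and cyclin-dependent kinases gave 6 higher and 10 lower of 40 (ranges 4 to 9 and 6 to 12). CCND3 was at a change of 1.17 ± 0.11 and CCND1 at a change of -1.01 ± 0.086. Replication genes of the MCM, origin and polymerase group gave 7 higher and 18 lower of 47 (ranges 6 to 7 and 11 to 20), with MCM2 of the replicative helicase at a change of -1.04 ± 0.082 and POLE2 at a change of -1.02 ± 0.079. The BCL2 and caspase family, which sets the threshold of apoptosis, gave 4 higher and 14 lower of 31 (ranges 2 to 6 and 8 to 15): BCL2L11, the killer protein BIM, rose by 1.63 ± 0.10, BCL2L2, a survival protein, fell by 1.33 ± 0.086 and CASP4, an inflammatory caspase, fell by 1.18 ± 0.20.

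Ubiquitin families gave both directions. TRIM ligases gave 11 higher and 16 lower of 44 (ranges 7 to 12 and 12 to 17): TRIM9 rose by 1.69 ± 0.15, and TRIM56 and TRIM7 fell, with changes of -2.07 ± 0.11 and -1.99 ± 0.21. F-box proteins gave 14 higher and 13 lower of 51 (ranges 9 to 15 and 10 to 14), with FBXO15 at a change of 1.98 ± 0.094, FBXO33 at a change of 1.17 ± 0.081, FBXO6 at a change of -1.57 ± 0.088 and FBXW4 at a change of -1.45 ± 0.14. BTB-Kelch adaptors gave 17 higher and 13 lower of 61 (ranges 12 to 18 and 7 to 15), with KLHL32 at a change of 1.97 ± 0.27, KBTBD8 at a change of 1.80 ± 0.12 and KLHL42 at a change of -1.94 ± 0.091. Ubiquitin-conjugating enzymes gave 6 higher and 10 lower of 25 (ranges 3 to 7 and 8 to 10), with UBE2J1 at a change of -1.64 ± 0.078. Ubiquitin-specific proteases gave 9 higher and 16 lower of 41 (ranges 6 to 10 and 9 to 18): USP20 and USP2 rose by 1.27 ± 0.079 and 1.08 ± 0.14, and USP13 and USP24 fell, with changes of -1.63 ± 0.10 and -1.04 ± 0.13.

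Interferon-stimulated genes gave 5 higher and 13 lower of 31, where all tested genes had 21.9% higher and 23.2% lower. OASL and IFI6 rose by 1.56 ± 0.11 and 1.04 ± 0.092, and PARP14 and PARP9, antiviral ADP-ribosyltransferases, fell, with changes of -1.74 ± 0.10 and -1.71 ± 0.14. Cancer-testis antigens, which are normally germline genes, gave 20 higher and 6 lower of 53 (ranges 11 to 21 and 2 to 7), and only 53 of the 130 on the array were tested. NANOS1 and PIWIL2, RNA regulators of germ cells, rose by 2.20 ± 0.077 and 1.71 ± 0.20. TDRD3, which is in the family by its symbol pattern, fell by 1.10 ± 0.11. Among antisense transcripts, a dim family, falls were near the share over all tested genes and rises were few. The part of level in these counts was not tested. Antisense transcripts gave 22 higher and 61 lower of 262 (ranges 12 to 27 and 36 to 71), with CCDC144NL-AS1 at a change of 1.91 ± 0.16, SCOC-AS1 at a change of 1.45 ± 0.26, TMPO-AS1 at a change of -2.08 ± 0.21 and KLRK1-AS1 at a change of -1.95 ± 0.11. Long noncoding host and intergenic RNAs gave 14 higher and 25 lower of 177 (ranges 8 to 18 and 14 to 30): LINC02901 rose by 1.61 ± 0.12, and MIR100HG, which hosts microRNA genes, and LINC00513 fell, with changes of -2.24 ± 0.11 and -1.96 ± 0.17.

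Across families, 12 genes had both vehicle arrays below the filter level and both largazole arrays at least 2 log2 units above it. They were SNAI2, SYT11, IGFBP3, TNFRSF19, DKK4, CYRIA, ACSBG1, CCN2, PMEPA1, NCAM1, ST6GALNAC3 and AKR1C3, and 10 of them met the conditions for named genes, TNFRSF19 and PMEPA1 being the exceptions. SYT11, a synaptotagmin of vesicle traffic, was at 6.99 and 7.24 in the largazole arrays and at 3.35 and 3.10 in the vehicle arrays. AKR1C3 was at 6.92 and 6.74 in the largazole arrays and at 4.31 and 4.35 in the vehicle arrays. The reverse pattern was found in 3 genes: MKX, ZBED2 and KRT23. KRT23 was at 4.33 and 4.30 in the largazole arrays and at 7.05 and 6.81 in the vehicle arrays, and its largazole arrays lay just below the filter level.

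Neighbouring genes were compared in their order along each chromosome. No run of at least 3 neighbouring tested genes rose at least 2-fold together, and 8 runs fell. Over all tested genes, 4.35% were called at least 2-fold higher and 4.77% at least 2-fold lower. For calls of any size, which is a looser threshold, the share per chromosome lay between 18.1% and 27.5% higher and between 18.9% and 28.3% lower. The longest runs had 4 genes: HOXB6, HOXB7, HOXB8 and HOXB9 fell, with changes of -2.16, -1.58, -3.07 and -1.31, and TGIF1 fell together with 3 antisense transcripts of DLGAP1. CAV2, CAV1 and MET, of which the caveolins coat membrane pits, fell, with changes of -1.30, -1.27 and -1.34. PARP9, DTX3L and PARP14, which act together in the interferon response, fell, with changes of -1.71, -2.25 and -1.74. TNFRSF1A, SCNN1A and LTBR fell, with changes of -1.22, -2.34 and -2.48. EREG and BTC fell beside LOC105377276. The other runs were LAMA2, ARHGAP18 and L3MBTL3, and ITPRIPL2, SYT17 and TMC5. SCNN1A, LTBR, TMC5, HOXB9 and TGIF1 did not meet the conditions for named genes and are listed for their position only.

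Largazole and FK228 were compared at the same dose and time. Of 13381 genes 1214 differed (9.07%), 653 higher with largazole (4.88%) and 561 lower (4.19%), by limma with Benjamini-Hochberg adjustment. With the replicate number as a block the count was 1864. Without largazole replicate 1 it was 99, without largazole replicate 2 it was 173, and without FK228 replicate 1 or 2 it was 332 and 359. Genes were ranked that differed at least 2-fold, with a call and a size within 1.5 times under every alternative that gave a value. The 5 highest with largazole were PHLDA1, CYP24A1, NRIP1, NR2F1 and TGFBR2. PHLDA1, a pleckstrin-type protein of the crypt, was at 10.62 and 10.55 with largazole and at 8.48 and 8.55 with FK228, a difference of 2.07 ± 0.096. CYP24A1 was at 6.52 and 6.60 with largazole and at 4.33 and 4.69 with FK228, a difference of 2.05 ± 0.14. NRIP1, a corepressor of nuclear receptors, was at 6.01 and 6.11 with largazole and at 4.17 and 4.53 with FK228, a difference of 1.71 ± 0.13. In all 5 genes both compounds lay below the vehicle arrays, and FK228 lay farther below them. NR2F1 and TGFBR2 differed by 1.52 ± 0.17 and 1.495 ± 0.094. PDE4B, EREG and PCDH7 differed by 1.90, 1.84 and 1.52 and were called, but did not meet the conditions in this comparison.

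Under the same conditions the 5 genes lowest with largazole against FK228 were CDKN2A-AS1, MIR7-3HG, CFAP184, CYSRT1 and EHD1. CDKN2A-AS1 was at 5.43 and 5.12 with largazole and at 6.99 and 6.67 with FK228. CYSRT1 was at 7.92 and 7.90 with largazole and at 9.15 and 9.13 with FK228. EHD1, which recycles membrane from endosomes, was at 8.30 and 8.15 with largazole and at 9.43 and 9.44 with FK228. In all 5 genes both compounds lay above the vehicle arrays, and FK228 lay farther above them. The differences were -1.56 ± 0.17, -1.45 ± 0.14, -1.40 ± 0.088, -1.23 ± 0.091 and -1.21 ± 0.13 in the order listed. A fit with only the 4 arrays compared called 624 genes.

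**Figure D5:**
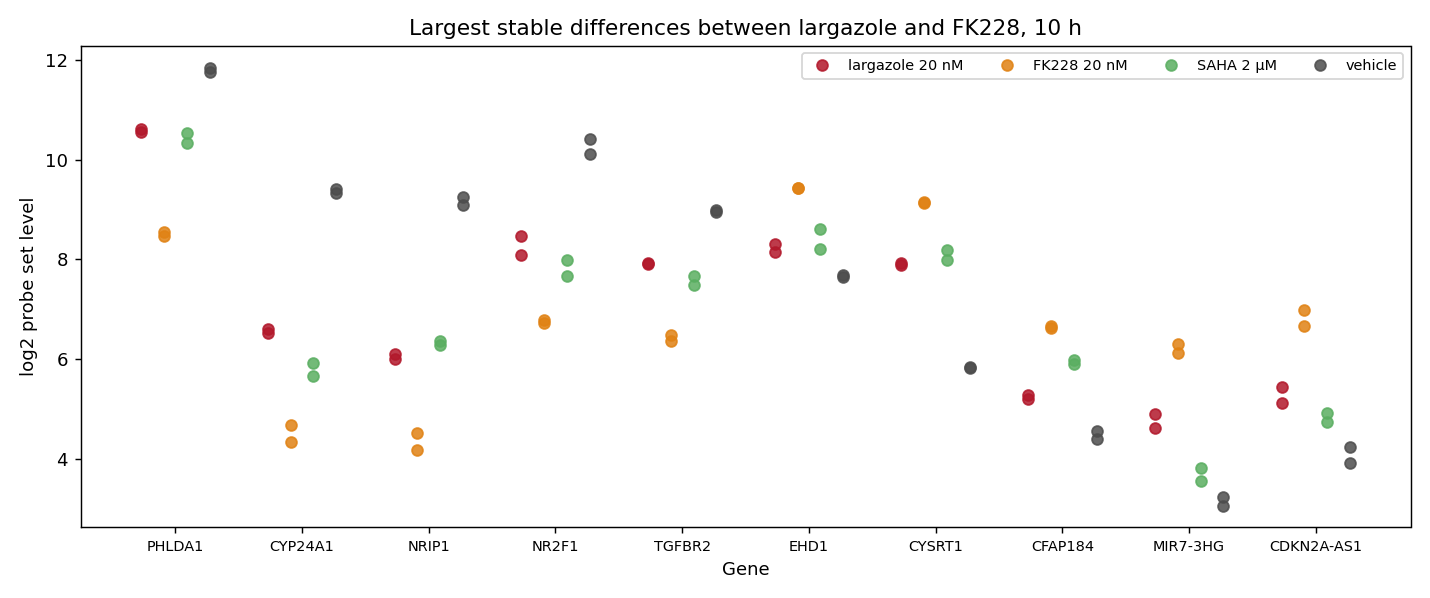
Log2 probe set levels (y axis) of the 5 genes highest and the 5 lowest with largazole against FK228 (x axis). They were taken from genes whose difference kept its call and size under every alternative that gave a value. Points are single arrays, left to right largazole, FK228, SAHA and vehicle; for every gene shown the largazole arrays lie between the FK228 and the vehicle arrays.

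Against SAHA, given at 2 µM where largazole was at 20 nM, doses differ and the values are only set side by side. The fit called 3 genes (0.0224%), all higher with largazole, and none lower, while 3584 probe sets had an unadjusted p under 0.05. The 3 were PABPN1, TNFAIP2 and KISS1R, listed after their values were seen. PABPN1, which binds poly(A) tails, was at 6.01 and 6.01 in the largazole arrays and at 5.07 and 5.18 in the SAHA arrays, and no gene was called with the replicate block or with any 1 of the 8 arrays left out. TNFAIP2 was at 7.03 and 7.05 with largazole and at 6.10 and 6.13 with SAHA. KISS1R, the receptor of kisspeptin, was at 8.43 and 8.55 with largazole and at 7.36 and 7.57 with SAHA. A p that misses the threshold does not show that the compounds act alike.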

How the data were processed

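RNA of HCT116 cells was measured on 8 arrays, 2 for each of largazole, SAHA, FK228 and vehicle. The values are the deposited log2 probe set levels; affy, RMA and limma are named as tools in the submitters' processing notes, and their roles, order and versions are not given in the sources used here. All 8 value columns matched 1 sample each. Gene symbols came from the platform annotation, in which 41091 of 54613 probe sets had 1 symbol, 1801 several and 11721 none.

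Probe sets whose second-highest value reached 4.49 were fitted with limma 3.58.1 in R 4.3.3 (1 coefficient a group, empirical Bayes, 4 residual and 3.69 prior degrees of freedom), with Benjamini-Hochberg adjustment over all tested probe sets of a comparison and a threshold of 0.05. Tables were made with Python 3.11.15 and pandas 2.3.3. In data simulated with the levels and spread of the arrays (28985 probe sets), 0 of 50 changes of 1.2-fold, 13 of 50 of 1.5-fold, 37 of 50 of 2-fold and 48 of 50 of 4-fold were recovered, and 4 of 102 calls were false. All other simulated probe sets had no change, while the real comparison called 11790 probe sets. The adjustment depends on how many probe sets change, so these recoveries do not give the sensitivity of the real comparison.

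Genes were named by a rule: called, at least 2-fold, arrays not overlapping, and called with a size within 1.5 times under every alternative that gave a value. From these came ranks 11 to 25 of the rises and of the falls, the 6 largest each way per class, and up to 2 each way per family. The 5 highest and 5 lowest against each other compound were also sought. Families are lists of symbol patterns (109 in 4 classes, each with at least 5 tested genes), and a family has no test of its own. A gene that matches no pattern, such as TFPI, CALHM2 or ZBED2, enters no class count or class ranking. The values of 2 of the families are not reported here. The members, lists and comparisons were chosen with earlier results of these data known. Same-numbered arrays of different groups deviated together (r between 0.128 and 0.268 over the 6 pairs of groups, and 0.184 for largazole and vehicle). A block by the replicate numbers in the titles was therefore run as an alternative. The main fit has no block, so its calls, standard errors and adjusted p are unpaired. Alternatives were the filter, the prior, the replicate block, the arrays in the fit, the scaling, the probe sets used and each array left out in turn.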

Additional observations from a re-analysis of the deposited data

How the results depend on the processing

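The comparison of largazole with vehicle kept its number of called genes within 1.5 times of 6044 under every alternative run, between 4439 and 6002 with 1 array left out. The higher calls ran between 2157 and 2922 with 1 array left out, the lower calls between 2282 and 3080, the calls at least 2-fold higher between 574 and 595, and those at least 2-fold lower between 624 and 659. The further quantile normalization gave 3106 higher and 2919 lower. The replicate block called 6727 genes. Genes that met the conditions for named genes kept their call under it by the naming rule, so this is no separate check. Against FK228, where 1214 genes were called, the count was 562 with no filter, 624 with only the 4 arrays compared, 1864 with the replicate block, 1905 with the stricter filter and 2024 with the trend and robust prior, and between 99 and 992 with 1 array left out; the cause was not tested. Against SAHA, where 3 genes were called, limma called 0 with no filter (4397 probe sets had an unadjusted p under 0.05), 0 with only the 4 arrays compared (3457) and 0 with the replicate block, 7 with equal ribosomal protein medians, 6 with further quantile normalization, 21 with the mean of all probe sets, 7 without probe sets of shared names, 39 with the stricter filter and 57 with the trend and robust prior. With 1 array left out the count was between 0 and 0. A group left with 1 array took its spread from the remaining groups. Family medians changed sign under a scaling in 6 of 109 families, all with a median of at most 0.042 in size, and in 25 families without probe sets of shared names; 67 kept their sign under all alternatives. Signals near the filter level limit the size of a change.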
